A study of Homo sapiens with 18 samples.

Results

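The G1 and S phase cyclins and cyclin-dependent kinases (CDKs), 10 genes, were examined across 6 groups of cultures of G401, a human malignant rhabdoid tumour cell line. The genes were taken by name, as the 3 D-type cyclins (CCND1, CCND2, CCND3) with CDK4 and CDK6, the 2 E-type cyclins (CCNE1, CCNE2) with CDK2, and cyclin A2 (CCNA2) with CDK1. All 10 were found among the 55765 genes of the deposited table, and all 10 passed the filter of a mean of at least 10 normalized counts over the 18 libraries, which 16154 genes passed. CDK6 passed it only through its drug-treated libraries, as given below. The group called WT carries an edit at the AAVS1 safe harbour site and keeps RB1. The groups called E1 and F2 are 2 clones in which CRISPR/Cas9 editing deleted RB1 on both alleles, with no RB1 protein seen on a Western blot according to the series' design text. Each line was grown for 11 days with tazemetostat at 10 µM, a small molecule that blocks EZH2, or with an equal volume of its solvent DMSO, and each of the 6 groups holds 3 libraries labelled as biological replicates. E1 and F2 are 1 clone each, so a property of the clone and the loss of RB1 cannot be told apart within either of them. Whether the replicates came from cultures kept apart throughout is not given in the sources used here, so the p-values measure the spread between these libraries.

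D-type cyclins accumulate in G1 in response to growth signals and activate CDK4 and CDK6, which begin the phosphorylation of the RB1 protein. Phosphorylated RB1 releases E2F transcription factors, whose targets include the E-type cyclins that activate CDK2 and, later, cyclin A2, the partner of CDK2 in S phase and of CDK1 in G2. EZH2 places the repressive H3K27me3 mark as the catalytic subunit of the PRC2 complex, and rhabdoid tumours, which typically lack the SWI/SNF subunit SMARCB1, are among the tumours in which its inhibition has been studied.

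Libraries held between 25709489 and 39314860 reads. RB1 transcript averaged 2694 ± 132 normalized counts (mean ± SD, n = 3 throughout) with DMSO in WT, against 647.8 ± 138 in E1 and 838.8 ± 30.5 in F2. With tazemetostat it averaged 2474 ± 157, 976.9 ± 59.0 and 937.5 ± 6.66. SMARCB1 had 0 reads in all 18 libraries, so it could not be detected at this depth, whereas SMARCA4, the ATPase of the same complex, lay between 9392 and 18583 normalized counts. VIM lay between 27410 and 69993. The epithelial genes looked at went apart, with EPCAM between 0.942 and 19.5 and KRT8 high, between 13831 and 165800. The leukocyte genes PTPRC and CD3E had at most 2 reads in any library, the endothelial gene CDH5 at most 29 and the hepatocyte gene ALB at most 9.

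Tazemetostat raised CCND1, CCND2 and CDK6 and lowered CCNE2, CDK2 and CCNA2 in WT cells, whereas in both RB1-deleted clones CCND2 and CDK6 were the only members past the threshold. The threshold asks for a limma p under 0.05 after Benjamini-Hochberg adjustment over all 16154 genes, together with a log2 change of 1 or more in either direction. In WT 6 of the 10 members passed it, 3 higher and 3 lower, against 21.3% of all tested genes. In E1 2 of 10 passed, both higher, against 15.1% of all tested genes, and in F2 2 of 10 passed, both higher, against 17.0%. CDK6, counted in every line, had entered the test only through its tazemetostat libraries. With the limit on size left out, 9 members differed in WT (4 higher and 5 lower), 6 in E1 (4 higher and 2 lower) and 8 in F2 (5 higher and 3 lower), against 64.2%, 46.8% and 52.2% of all tested genes.

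**Figure D1:**
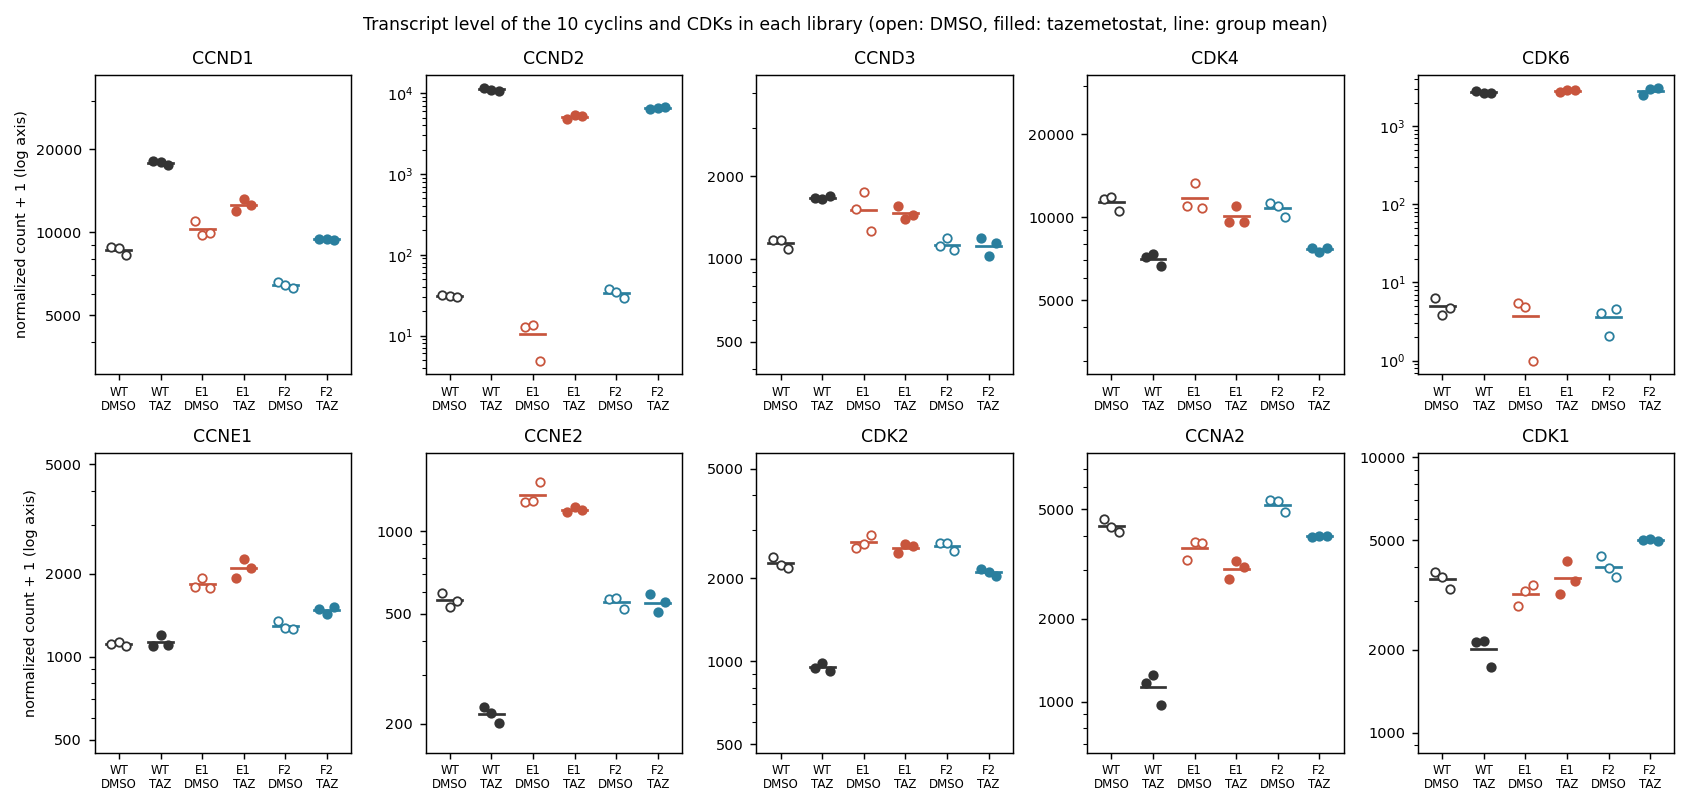
Each panel shows 1 of the 10 genes, with the normalized count plus 1 of every library on a log axis, open points for DMSO, filled points for tazemetostat and a line at each group mean. CCND2 and CDK6 move from near the bottom of their axes to at least 2483 normalized counts in all 3 lines, while CCNE2, CDK2, CCNA2 and CDK1 are lowest in WT with tazemetostat.

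CCND2, the D-type cyclin with least RNA in these cells without drug, rose in all 3 lines. In WT the 3 DMSO libraries held 30.6, 30.2 and 29.3 normalized counts and the 3 tazemetostat libraries 11550, 11102 and 10767. In E1 the corresponding values were 11.6, 12.6 and 3.90 against 4787, 5391 and 5177. In F2 they were 36.9, 33.2 and 27.9 against 6395, 6603 and 6676. The groups of each line lay far apart, with the highest DMSO library of any line at 36.9 and the lowest tazemetostat library at 4787. As a ratio of summed reads the increase was 371.7-fold in WT (95% exact interval 304.9 to 458, counting error only), 544.1-fold in E1 (381 to 806.7) and 199.2-fold in F2 (162.2 to 247.6). The log2 changes were 8.49 ± 0.24 (SE; limma adjusted p = 7.8e-16), 9.08 ± 0.24 (3.1e-16) and 7.61 ± 0.24 (3.1e-15). The DMSO side of these ratios rests on 98, 30 and 91 reads in all, and E1 DMSO replicate 3 contributed 4 of the 30.

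CCND1, the D-type cyclin with most RNA, responded in the same direction but by far less. Its WT libraries held 8829, 8789 and 8283 normalized counts with DMSO and 18230, 18040 and 17514 with tazemetostat, and the groups did not overlap. The log2 change in WT was 1.05 ± 0.06 (limma adjusted p = 6.4e-12). With every library scaled to the same total it was 0.90, under the size limit. In E1 the libraries held 10974, 9817 and 9949 with DMSO and 11946, 13166 and 12576 with tazemetostat, a log2 change of 0.29 ± 0.06 (adjusted p = 2.4e-04). In F2 they held 6592, 6422 and 6271 against 9474, 9487 and 9351, a log2 change of 0.55 ± 0.06 (adjusted p = 8.8e-08). Tazemetostat libraries were thus above DMSO libraries in every line, and only the change in WT reached a log2 value of 1.

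CCND3 differed between treatments in WT alone by the adjusted p, and by less than the size limit. The WT libraries held 1170, 1175 and 1086 normalized counts with DMSO and 1660, 1656 and 1685 with tazemetostat, a log2 change of 0.54 ± 0.09 (limma adjusted p = 4.4e-05), without overlap. In E1 the values were 1513, 1742 and 1257 against 1549, 1394 and 1442, and in F2 1117, 1186 and 1080 against 1187, 1021 and 1138. Both clones' groups overlapped, with log2 changes of -0.03 (95% interval -0.22 to 0.16) and -0.02 (-0.21 to 0.18).

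CDK6, one of the pair of kinases that D-type cyclins activate, was close to undetected without drug and rose in all 3 lines. Its DMSO libraries held 6, 3 and 4 reads in WT, 5, 4 and 0 in E1 and 3, 1 and 3 in F2. With tazemetostat the normalized counts were 2847, 2660 and 2685 in WT, 2710, 2881 and 2910 in E1, and 2483, 2994 and 3072 in F2. Libraries of the 3 lines with tazemetostat overlapped one another, while each lay far above all DMSO libraries. The summed reads were 7913 against 13 in WT, a ratio of 685.8 (95% exact interval 400.8 to 1289, counting error only). They were 8613 against 9 in E1, a ratio of 1004 (528.4 to 2195), and 8844 against 7 in F2, a ratio of 1126 (546.2 to 2801). The fitted log2(value + 1) changes, which understate the difference for a gene near 0, were 9.14 ± 0.44, 9.89 ± 0.44 and 9.71 ± 0.44 (limma adjusted p = 1.6e-12, 5.4e-13 and 6.1e-13). The DMSO means of CDK6, at 3.951, 2.775 and 2.584 in WT, E1 and F2, lay under the filter's mean of 10. CDK6 was thus tested only because of the groups in which it was high, which limits what these p-values say. AC002454.1, a gene annotated over the CDK6 start on the opposite strand, averaged 0 with DMSO and 4.15, 6.52 and 5.79 normalized counts with tazemetostat in WT, E1 and F2.

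The sequence before the annotated CDK6 starts is shown because CDK6 went from a few reads to a well-detected gene and CpG-rich promoters are the usual sites of PRC2 in mammals. RefSeq (GRCh38.p14) gave windows for 2 starts, and the 150 bases furthest upstream of each are printed 5′ to 3′ on the gene's strand, with CG in capitals.
CDK6 start 1, chr7:92836674-92836823, minus strand: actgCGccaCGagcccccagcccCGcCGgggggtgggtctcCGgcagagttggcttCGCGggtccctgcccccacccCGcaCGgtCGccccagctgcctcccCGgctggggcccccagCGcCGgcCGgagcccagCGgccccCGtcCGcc
CDK6 start 2, chr7:92834060-92834209, minus strand: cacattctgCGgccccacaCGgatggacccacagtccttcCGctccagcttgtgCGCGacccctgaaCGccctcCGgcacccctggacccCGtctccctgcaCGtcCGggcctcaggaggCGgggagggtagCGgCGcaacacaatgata
The first stretch holds 17 CG and is 82.0% G or C, and the second holds 13 and is 68.0% G or C. Over the whole 250 bases before each start the observed-to-expected CpG ratio was 0.78 and 0.85, where the median over 35116 windows of all genes was 0.56. Windows of members that were well detected without drug had like ratios, with 0.99 for CCNA2, 0.96 for CCNE1, 0.89 and 0.82 for CDK1 and 0.73 for CDK4, so a high ratio did not set CDK6 apart. The 3 windows of CCND3 had 0.75, 0.83 and 0.13. The second stretch lies in an intron of the CDK6 transcripts that begin further upstream. PRC2 occupancy and H3K27me3 were not measured in these libraries, and the windows are a description of sequence only.

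CDK4 moved the other way from CDK6. The WT libraries held 11653, 11818 and 10570 normalized counts with DMSO and 7178, 7361 and 6655 with tazemetostat, which did not overlap and gave a log2 change of -0.68 ± 0.08 (limma adjusted p = 5.9e-07). In F2 they held 11287, 11005 and 10028 against 7747, 7501 and 7715, again without overlap, a log2 change of -0.49 (adjusted p = 4.5e-05). In E1 the values were 10965, 13353 and 10846 against 9627, 10987 and 9599, where the groups overlapped and the log2 change was -0.22 (adjusted p = 0.036). None of the 3 changes reached a log2 size of 1. TSPAN31, which overlaps CDK4 on the opposite strand, averaged 429.2 and 419.1 normalized counts in WT, 188.3 and 229.2 in E1, and 402.7 and 515.9 in F2 with DMSO and tazemetostat.

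The make-up of each family was compared as normalized counts per kb of the representative transcript. CCND2 went from 0.181% ± 0.0033 of the D-type cyclin level to 25.7% ± 0.39 in WT, from 0.0458% ± 0.022 to 17.9% ± 0.48 in E1 and from 0.247% ± 0.029 to 27.1% ± 0.69 in F2 (SD, n = 3). The summed D-type level per kb went from 2558 ± 94.6 to 6681 ± 138 in WT, from 3102 ± 181 to 4408 ± 151 in E1 and from 2038 ± 52.1 to 3738 ± 23.5 in F2. With tazemetostat the sum was therefore highest in WT, and CCND1 still made up most of it in each line, at 62.3%, 66.2% and 58.6% in WT, E1 and F2. As group means, CDK6 made up at most 0.00624% of the CDK4 and CDK6 level per kb with DMSO, the highest single library being at 0.00804%. With tazemetostat it made up 6.47% ± 0.35, 4.80% ± 0.33 and 6.24% ± 0.71 in WT, E1 and F2. The sum of both kinases per kb was 5466 ± 326 with DMSO and 3638 ± 178 with tazemetostat in WT, and 5190 ± 318 and 3932 ± 56.1 in F2, with CDK4 holding nearly all of it. In E1 it was 5646 ± 681 and 5095 ± 386, a difference smaller than the SD with DMSO, and per coding length its direction turned, at 12898 ± 1560 and 13976 ± 919. The CDK6 share depends on the length taken too, since its representative transcript has 11612 bases and its coding part 978. Per coding length the shares with tazemetostat were 26.4%, 20.8% and 25.7%.

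**Figure D2:**
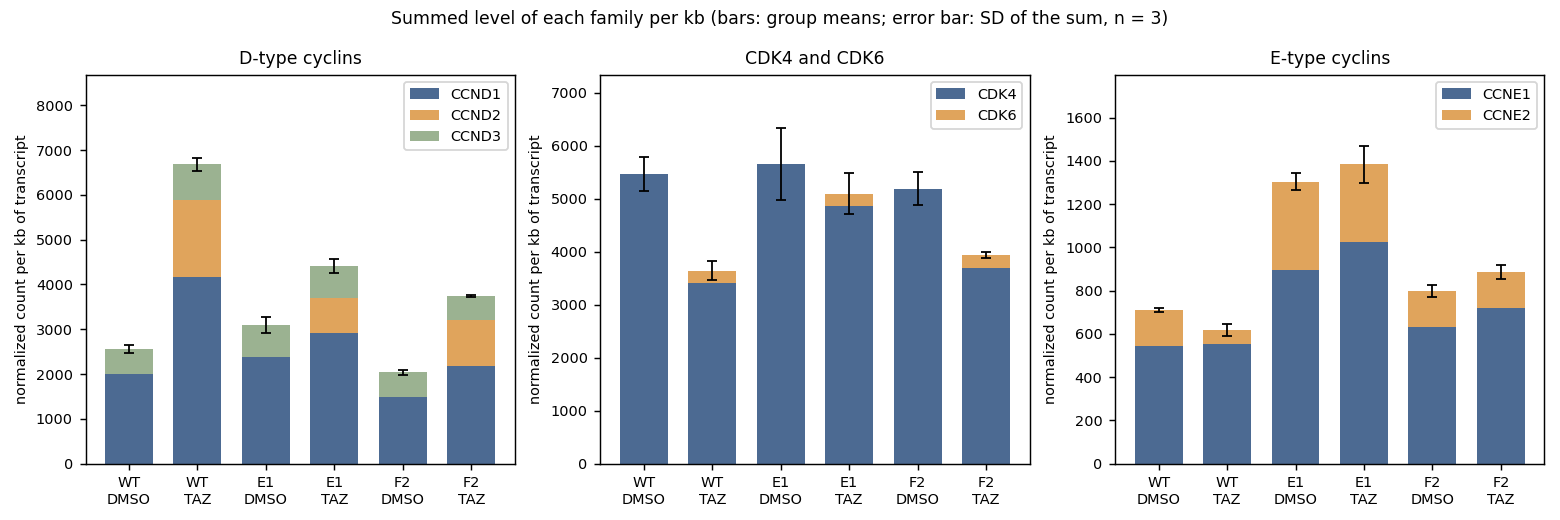
Stacked bars give the group mean level of each D-type cyclin, of CDK4 and CDK6, and of each E-type cyclin in normalized counts per kb of representative transcript, with the SD of the sum over 3 libraries. The D-type sum in WT goes from 2558 to 6681 with tazemetostat and CCND2 supplies 25.7% of the latter, while CDK4 averages at least 93.5% of the kinase sum in every group on this length.

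CCNE1, the first of the E-type cyclins, did not pass the test for a change with tazemetostat in WT, while CCNE2 fell there. The WT libraries held 1107, 1133 and 1091 normalized counts of CCNE1 with DMSO and 1090, 1194 and 1102 with tazemetostat, which overlapped, with a log2 change of 0.02 (95% interval -0.11 to 0.16). In E1 they held 1792, 1937 and 1770 against 1937, 2260 and 2094, and in F2 1346, 1271 and 1258 against 1484, 1422 and 1517. The log2 change was 0.19 in each clone (limma adjusted p = 0.021 and 0.019). The groups of E1 met at 1937, the highest DMSO and the lowest tazemetostat library, and the groups of F2 did not overlap. With every library scaled to the same total the change in E1 was 0.13 (adjusted p = 0.077).

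CCNE2 fell in WT from 593.1, 526.8 and 556.4 normalized counts with DMSO to 228.6, 217.0 and 199.5 with tazemetostat. The groups lay apart, and the log2 change was -1.37 ± 0.08 (limma adjusted p = 5.6e-11). In E1 the libraries held 1269, 1288 and 1504 against 1168, 1221 and 1190, a log2 change of -0.18 (95% interval -0.36 to 0.00, adjusted p = 0.094). In F2 they held 566.5, 568.5 and 521.8 against 589.3, 505.7 and 552.2, a log2 change of -0.01 (-0.19 to 0.17). The lowest E1 library of either treatment, at 1168, was above every WT and F2 library. Of the summed E-type level per kb CCNE2 made up 23.6% ± 1.3 with DMSO and 10.5% ± 0.80 with tazemetostat in WT, 31.2% ± 2.8 and 25.9% ± 1.1 in E1, and 20.8% ± 0.67 and 18.6% ± 0.89 in F2. Per coding length the CCNE2 shares were 33.8% and 16.2% in WT, 42.8% and 36.7% in E1, and 30.3% and 27.4% in F2. INTS8 and NDUFAF6 overlap CCNE2 on the opposite strand, and reads may be shared if counting ignored the strand. With DMSO and tazemetostat INTS8 averaged 1963 and 2058 in WT, 1918 and 2358 in E1, and 1975 and 1897 in F2. NDUFAF6 averaged 480.9 and 452.5 in WT, 523.2 and 578.1 in E1, and 476.8 and 489.3 in F2.

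CDK2, the kinase that E-type cyclins and cyclin A2 activate, fell in WT. Its libraries there held 2393, 2234 and 2178 normalized counts with DMSO and 943.1, 984.9 and 922.4 with tazemetostat, and the log2 change was -1.25 ± 0.06 (limma adjusted p = 1.2e-12). In F2 they held 2690, 2678 and 2519 against 2154, 2109 and 2031, without overlap, a log2 change of -0.33 (adjusted p = 1.4e-04). In E1 they held 2569, 2662 and 2879 against 2464, 2655 and 2613, which overlapped, with a log2 change of -0.07 (95% interval -0.19 to 0.06).

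CCNA2, the cyclin of S phase and G2, had the largest fall of the 10 in WT. Its libraries held 4615, 4314 and 4117 normalized counts with DMSO and 1169, 1244 and 971.6 with tazemetostat, so that 25.9% of the DMSO level was left (log2 change -1.95 ± 0.09, limma adjusted p = 4.4e-13). In bulk RNA fewer cells in a phase of the cycle and less RNA per cell cannot be told apart. In E1 the values were 3264, 3796 and 3776 against 2783, 3249 and 3086, a log2 change of -0.25 (adjusted p = 0.024). In F2 they were 5370, 5338 and 4868 against 3973, 3995 and 3990, a log2 change of -0.38 (adjusted p = 0.0011). In both clones the groups did not overlap, and 84.1% and 76.8% of the DMSO level was left. EXOSC9, which overlaps CCNA2 on the opposite strand, averaged 1536 and 679.5 in WT, 1964 and 2005 in E1, and 1803 and 1718 in F2 with DMSO and tazemetostat. Whether counting used the strand is not given in the sources used here, so reads of the pair may be shared.

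CDK1, the kinase that drives entry into mitosis, was lower with tazemetostat in WT by less than the size limit, while its log2 change was above 0 in both clones. The WT libraries held 3828, 3682 and 3321 normalized counts with DMSO and 2141, 2149 and 1736 with tazemetostat, without overlap (log2 change -0.85 ± 0.10, limma adjusted p = 7.7e-07). With every library scaled to the same total this change was -1.0 and past the threshold. In E1 they held 2891, 3273 and 3448 against 3180, 4204 and 3567, which overlapped, with a log2 change of 0.18 (95% interval -0.03 to 0.40). In F2 they held 4397, 3954 and 3683 against 4995, 5073 and 4977, without overlap, a log2 change of 0.33 (adjusted p = 0.012).

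Sequence words before the starts of CCNA2 and CDK1 are shown because both genes are known targets of the cell cycle promoter elements that E2F and MuvB complexes read. Of the 10 members 6 had RefSeq promoter windows (GRCh38.p14), namely CCND3, CDK4, CDK6, CCNE1, CCNA2 and CDK1. The 250 bases before each start were searched on both strands for TTTGAA or CTTGAA (the cell cycle homology region, CHR), for the E2F words TTTCGCGC, TTTGGCGC, TTTCCCGC and TTTGCCGC, and for CCAAT. The words do not overlap one another in the matches below, which carry the word in capitals.
CCNA2, CHR word 28 to 23 bases before the start, chr4:121823902-121823931, minus strand: atttcaatagtcgcgggataCTTGAActgc
CDK1 start 2, CHR word 13 to 8 bases before the start, chr10:60778445-60778474, plus strand: gggccctttagcgcggtgagTTTGAAactg
CDK1 start 2, E2F word 128 to 121 bases before the start, chr10:60778332-60778361, plus strand: gccgccctttcctctttcTTTCGCGCtcta
A CHR word was found in 20.9% of all 35116 windows, an E2F word in 2.79% and CCAAT in 32.0%. Among the members a CHR word was found in the windows of CCNA2 and CDK1 only, the E2F words in CDK1 only, and CCAAT in CCND3, CCNA2 and CDK1. A match is a word in the window and not a measured site, and the other members with windows are described only as lacking these letters there.

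**Figure D3:**
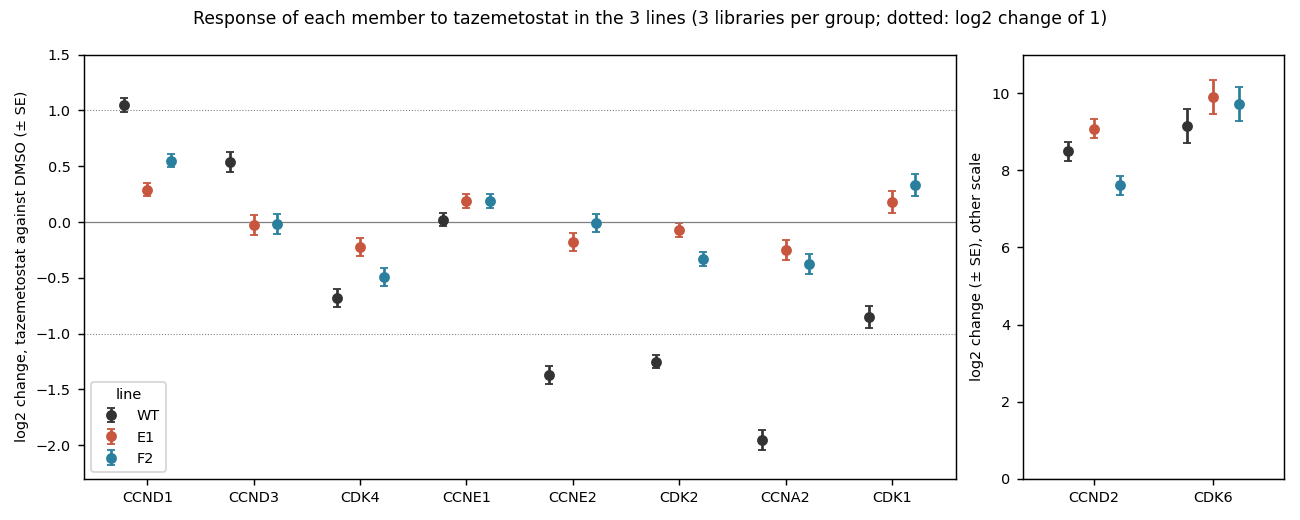
Points give the log2 change with tazemetostat of each member in WT, E1 and F2 with its SE from limma, and dotted lines mark a log2 change of 1. The right panel has its own scale for CCND2 and CDK6, whose changes run from 7.61 to 9.89, while in the left panel the WT points of CCNE2, CDK2 and CCNA2 lie below -1 and all clone points lie between -0.49 and 0.55.

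The drug response was then compared between lines as the log2 change in a clone minus that in WT. In E1 4 of 10 members differed past the threshold from WT, against 10.0% of all tested genes, and in F2 3 of 10 differed, against 7.48%. All of these differences were positive, and both comparisons use the same 6 WT libraries. CCNA2 differed by 1.70 ± 0.12 in E1 (limma adjusted p = 8.9e-09) and by 1.57 ± 0.12 in F2 (4.1e-08). CCNE2 differed by 1.20 ± 0.12 (4.8e-07) and 1.36 ± 0.12 (1.7e-07). CDK1 differed by 1.03 ± 0.14 (2.3e-05) and 1.18 ± 0.14 (8e-06). Leaving out WT DMSO replicate 1, WT tazemetostat replicate 3, E1 DMSO replicate 1 or E1 tazemetostat replicate 2 took the CDK1 difference of E1 to between 0.93 and 0.99, under the size limit. CDK2 differed by 1.19 ± 0.08 in E1 (7.9e-09) and, below the size limit, by 0.93 ± 0.08 in F2 (2.3e-07). With every library scaled to the same total the CDK2 difference in F2 was 1.05.

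The G1 members differed less or the other way. CCND1 gave -0.76 ± 0.08 in E1 (limma adjusted p = 7.7e-07) and -0.50 ± 0.08 in F2 (1.2e-04), and CCND3 gave -0.57 ± 0.13 (0.0021) and -0.56 ± 0.13 (0.0034), both being smaller changes in the clones than in WT. CDK4 gave 0.47 ± 0.11 in E1 (0.0038) and 0.19 ± 0.11 in F2 (0.23). No difference passed the test for CCND2, at 0.60 (95% interval -0.12 to 1.32) in E1 and -0.87 (-1.59 to -0.15, adjusted p = 0.068) in F2. The fit shares 1 spread over all groups, which includes E1 DMSO replicate 3 with 4 reads of CCND2. Without that library the SE of the CCND2 response difference between the clones was 0.13 and not 0.34. The intervals on the ratio of summed reads, counting error only, were 304.9 to 458 in WT and 162.2 to 247.6 in F2, without overlap. For CDK6 no difference passed the test either, at 0.76 (-0.55 to 2.06) and 0.58 (-0.73 to 1.89), where few DMSO reads make the intervals wide. CCNE1 gave 0.17 (-0.02 to 0.36) in each clone.

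Without drug CCNE2 and CCND2 separated E1 from WT, and no member separated F2 from WT past the threshold. In E1 2 of 10 passed the threshold, against 5.04% of all tested genes, CCNE2 being higher and CCND2 lower. The CCNE2 mean was 1354 ± 131 in E1 against 558.8 ± 33.2 in WT (log2 difference 1.27 ± 0.08, limma adjusted p = 2e-09). The CCND2 mean was 9.35 ± 4.75 against 30.02 ± 0.629 (log2 difference -1.72 ± 0.24, adjusted p = 3.3e-05), and with only the compared groups in the fit its adjusted p was 0.064. CCNE1 was higher in E1 by 0.72 ± 0.06 (adjusted p = 1.2e-07), below the size limit. In F2 0 of 10 members passed the threshold, against 2.98% of all tested genes, and this count was also 0 with edgeR and with DESeq2. At an unadjusted limma p under 0.05, 3 members were higher and 1 was lower in F2, against 14.1% and 18.5% of all tested genes. CCND1 was lower in F2 by the adjusted p, with a log2 difference of -0.43 ± 0.06 (2.6e-05), while CCNE1, CDK2 and CCNA2 gave 0.22, 0.21 and 0.26 (0.023, 0.016 and 0.043). These adjusted p-values come from the limma fit without a replicate block, although replicate numbers were taken to pair the samples of this comparison.

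Under tazemetostat CCNE2, CDK2 and CCNA2 were higher in both clones than in WT. In E1 4 of 10 members passed the threshold, against 11.3% of all tested genes, and in F2 4 of 10, against 12.3%. CCNE2 was higher than in WT by a log2 difference of 2.47 ± 0.08 in E1 (limma adjusted p = 2.5e-13) and 1.35 ± 0.08 in F2 (3.5e-10). CDK2 was higher by 1.44 ± 0.06 (2.5e-12) and 1.14 ± 0.06 (3.1e-11), and CCNA2 by 1.43 ± 0.09 (2.5e-10) and 1.83 ± 0.09 (1e-11). CDK1 was higher by 1.33 ± 0.10 in F2 (5.7e-09) and by 0.86 ± 0.10 in E1 (1.6e-06), where it was below the size limit. The fourth member past the threshold in E1 was CCND2, with 5118 ± 306 normalized counts against 11139 ± 393 in WT (log2 difference -1.12 ± 0.24, adjusted p = 8.1e-04). CCND1 was lower than in WT in both clones, at -0.51 ± 0.06 in E1 (5e-07) and -0.93 ± 0.06 in F2 (2.2e-10). CDK6 did not pass the test in either, at 0.05 (95% interval -0.87 to 0.98) and 0.06 (-0.87 to 0.98). In 9 of the 10 genes, all but CDK6, the libraries of each clone did not overlap with those of WT under tazemetostat, which was also so for 61.4% of all tested genes in E1 and 67.5% in F2.

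**Figure D4:**
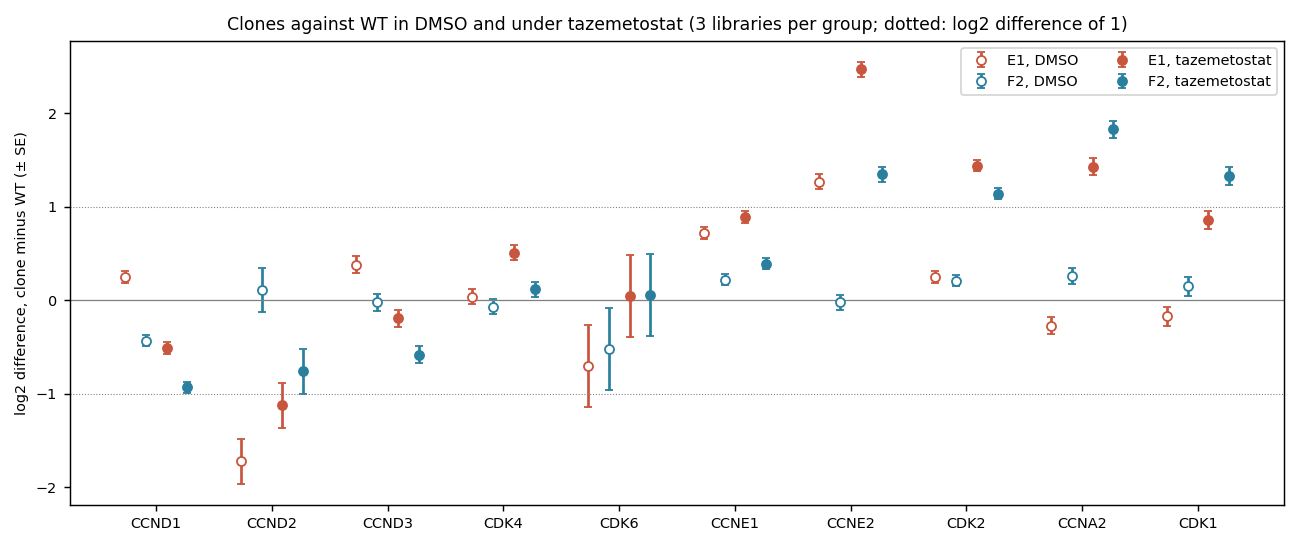
Points give the log2 difference of each member between a clone and WT with its SE from limma, open for DMSO and filled for tazemetostat, with dotted lines at a log2 difference of 1. The filled points of CCNE2, CDK2 and CCNA2 lie between 1.14 and 2.47 in both clones, while the open points of CDK2 and CCNA2 lie between -0.27 and 0.26.

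Between the clones few members differed past the threshold, and a count of 1 of 10 is near the share of all tested genes. With DMSO 2 of 10 members passed the threshold, against 7.56% of all tested genes: CCNE2 was higher in E1 than in F2 by a log2 difference of 1.29 ± 0.08 (limma adjusted p = 8.7e-10) and CCND2 gave -1.83 ± 0.24 (9.6e-06). With tazemetostat 1 of 10 passed, against 6.82%, which was CCNE2 at 1.12 ± 0.08 (1.2e-08). In the response 1 of 10 differed past the threshold, against 5.81%, which was CCND2 at 1.47 ± 0.34 (0.006, 95% interval 0.75 to 2.19). Without E1 DMSO replicate 3, the library with 4 reads of CCND2, this difference was 1.00, just under the size limit, with an adjusted p of 2e-05. CCNA2, CCNE2 and CDK1 responses gave 0.13 (95% interval -0.12 to 0.39), -0.17 (-0.42 to 0.08) and -0.14 (-0.45 to 0.16) between the clones.

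The order of the members by level per kb of representative transcript changed with the drug. In WT with DMSO it ran from CDK4 (5466 ± 326), through CCND1 (2005 ± 70.7), CDK1 (1887 ± 137), CCNA2 (1555 ± 89.7), CDK2 (988 ± 48.6), CCND3 (548.7 ± 24.0), CCNE1 (543.4 ± 10.3) and CCNE2 (167.8 ± 9.97), to CCND2 (4.63 ± 0.097) and CDK6 (0.3403 ± 0.105). The libraries of CCND1 and CDK1 overlapped, as did those of CCND3 and CCNE1, so these neighbours have no firm order. In WT with tazemetostat CCND1 (4163 ± 86.1) was above CDK4 (3403 ± 176), CCND2 (1719 ± 60.6) was at rank 3, and CDK2 (413.8 ± 13.9) and CCNA2 (403.3 ± 50.3) overlapped at ranks 7 and 8. In the clones CDK4 was at rank 1 under both treatments, at 5646 and 4851 in E1 and 5190 and 3687 in F2. This order depends on the length used. Per coding length CCND1 was above CDK4 with tazemetostat in E1 (14195 against 11079) and F2 (10664 against 8421) as well as in WT (20258 against 7772), where CCND2 was then at rank 2. CDK1 under tazemetostat was at rank 2 in F2 and rank 3 in E1 per representative transcript, and at rank 4 in both per coding length and per union of exons. In E1 with tazemetostat CDK2, CCNA2 and CCNE1 lay between 1026 and 1122 per kb of representative transcript, with each overlapping the next.

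Other genes of the pathway were taken from lists of regulators and targets of these kinases, and their counts are to be read against the 21.3%, 15.1% and 17.0% of all tested genes past the threshold in WT, E1 and F2. At an unadjusted p under 0.05, 36.2% of all tested genes were higher and 31.0% lower in WT, 29.9% and 22.6% in E1, and 31.3% and 25.9% in F2. In WT with tazemetostat, 10 of 11 replication licensing genes fell and none rose, with a median log2 change of -1.25, where the median of all tested genes was 0.03 (0.02 in E1 and in F2). ORC1 (-2.02) and MCM6 (-1.88), parts of the complexes that mark and unwind origins, gave the largest changes, followed by GMNN (-1.58), the inhibitor of relicensing, and MCM7 (-1.38). In E1 and F2 0 of these 11 passed the threshold with limma, edgeR or DESeq2, with medians of -0.24 and -0.33 and changes for ORC1 of -0.49 and -0.65. At an unadjusted limma p under 0.05, 1 was higher and 7 were lower in E1, and 8 were lower in F2. The response difference from WT passed the threshold for 7 of 11 in E1 and 5 of 11 in F2, all positive. All 3 tested mitotic or G2 cyclins fell in WT (CCNB2 -1.65, CCNB1 -1.04, CCNF -1.01) and 0 of 3 passed in either clone with any of the 3 tools, with 2 lower in E1 and 1 lower in F2 at an unadjusted p under 0.05. CCNA1, the fourth of that list, was below the filter.

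Among 15 activators, adaptors and turnover factors 4 fell and none rose in WT, which were FBXO5 (-1.60), an inhibitor of the anaphase-promoting complex that protects cyclin A, and the CDK-activating phosphatases CDC25B (-1.14), CDC25A (-1.14) and CDC25C (-1.09). In either direction 4 of 15 is near the 21.3% of all 16154 tested genes, of which 2342 rose and 1094 fell past the threshold. With the size limit left out, 2 of the 15 were higher and 10 lower in WT, against 34.8% and 29.4% of all tested genes. None of the 15 passed the threshold in E1 or F2 with limma, edgeR or DESeq2, while at an unadjusted p under 0.05 1 was higher and 4 were lower in E1, and 7 were lower in F2. Of 13 RB family and E2F genes 3 fell and none rose in WT, which were E2F8 (-2.38), E2F2 (-2.34) and RBL1 (-1.46). Counted in either direction this was a share near that of all tested genes, of which more rose than fell. By the limma adjusted p alone 1 of the 13 was higher and 9 were lower in WT, against 34.8% and 29.4% of all tested genes. E2F2 fell in E1 (-1.16) and in F2 (-1.13) too. In F2 TFDP2 also fell (-1.02) and E2F7 rose (2.56), 2 genes named after their values were seen. Of 7 inhibitors of the kinases 3 rose and 1 fell in WT. CDKN2B, which binds CDK4 and CDK6, rose in WT (3.26), E1 (2.71) and F2 (3.40). CDKN2A rose in WT (1.74) and F2 (1.52) and gave 0.88 in E1, below the size limit. CDKN2D rose in WT (1.03), though not with every library scaled to the same total, and gave 0.05 and 0.11 in E1 and F2. CDKN2C, an inhibitor of the same pair of kinases, fell in WT (-1.61) and gave -0.51 and -0.72 in E1 and F2. None of 21 cyclins and CDKs with roles in transcription or elsewhere passed the threshold in any of the 3 lines with limma, edgeR or DESeq2, with medians of 0.06, 0.05 and -0.02. At an unadjusted p under 0.05, 5 were higher and 9 lower in WT, 4 and 4 in E1, and 3 and 4 in F2. EZH2 itself averaged 2478 with DMSO and 876.4 with tazemetostat in WT, 3178 and 2989 in E1, and 3207 and 2649 in F2.

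**Figure D5:**
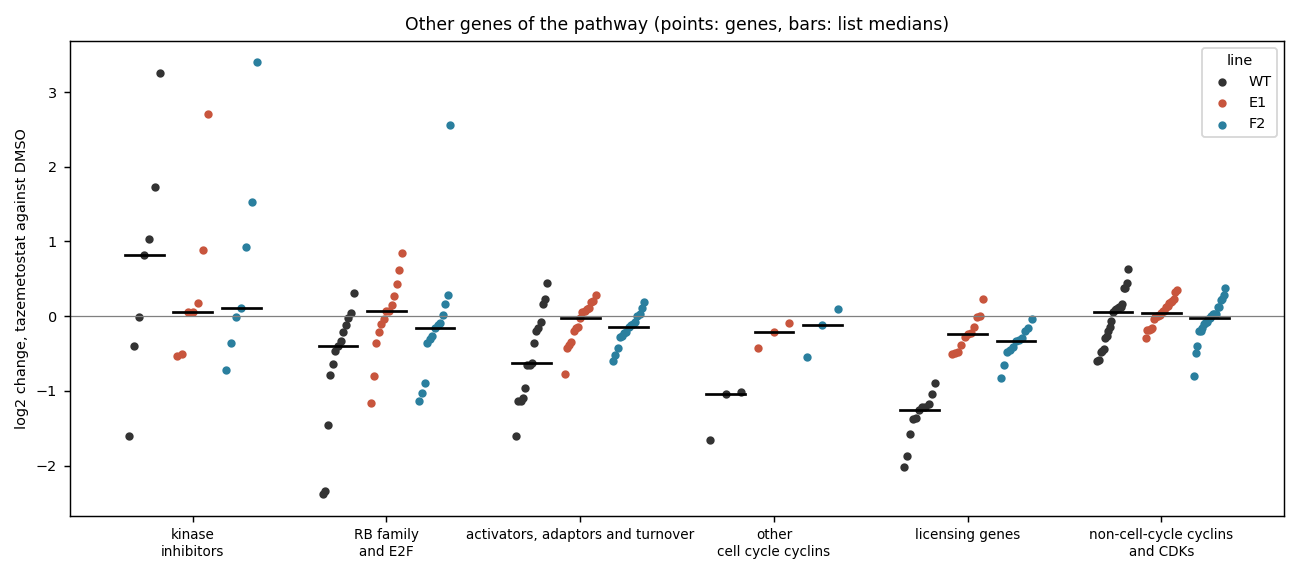
Each point is 1 gene of a pathway list, placed by its log2 change with tazemetostat in WT, E1 or F2, and black bars are list medians. The licensing genes in WT centre at -1.25 against -0.24 in E1 and -0.33 in F2, and the cyclins and CDKs with other roles centre near 0 in all 3 lines.

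For the 7 members past the threshold in a treatment comparison or in a response difference, the 3 tested genes with the nearest pattern over the 6 group means were found, with the root mean square (RMS) difference of centred log2 values as the measure of likeness. CCNA2 was nearest to ASPM (RMS 0.046), CDCA3 (0.073) and KIF11 (0.079). CDK1 was nearest to RP11-206L10.2 (0.050), CDCA2 (0.055) and CCDC150 (0.055), and CDK2 to SFXN2 (0.052), UBE2T (0.057) and GDPD3 (0.062). CCND1 was nearest to TAF13 (0.044), VPS18 (0.044) and TOR1B (0.057). The other members had no neighbour as near. CCNE2 was nearest to ALDH3A1 (0.262), TYMS (0.266) and PCNA (0.289), CDK6 to PTPRK (0.218), MET (0.223) and KYNU (0.245), and CCND2 to ZNF704 (0.385), RCAN2 (0.395) and PTGER4 (0.397). Some of these neighbours were low in every group, with group means of 4.04 to 30.2 normalized counts for ALDH3A1, 12.1 to 34.1 for GDPD3 and 20.5 to 48.15 for RP11-206L10.2. The RMS values describe 6 group means and carry no test.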

How the data were processed

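The 18 G401 libraries, 6 groups of 3, were made from poly(A) RNA with a stranded kit and read in pairs, per the labels' protocols. The deposited table has 55765 genes, each with a signal per library, its read count over the library's size factor. Trim Galore 0.4.4, STAR 2.6.0a, HTSeq, DESeq2 and hg19 are named in the submitters' processing notes. The annotation and the strand setting of counting are not given in the sources used here. Values times the library's size factor (0.812 to 1.145) were whole reads for 100% of values within 0.001, which gave 25709489 to 39314860 reads per library. PCR copies carry no molecular identifiers, so intervals on reads cover only counting error.

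Log2(value + 1) was fitted with limma 3.58.1 (R 4.3.3) in 1 model of 6 group means over the 16154 genes with a mean of at least 10, with a mean-variance trend and no replicate block, and 12 contrasts were taken. On the recovered reads edgeR 4.0.16 (TMM, quasi-likelihood test) and DESeq2 1.42.0 each called 3466 genes in WT with tazemetostat, against 3436 with limma. The fit was tested on simulated data. Response differences subtract the log2 change of one line from that of another.

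The members and lists were chosen with earlier results of these data known. Named genes were the 10 members, RB1, EZH2 and SMARCB1, at most 4 genes per pathway list with the largest change past the threshold in WT, and 3 nearest patterns per member. Replicate numbers come from the sample titles. Same-numbered samples' deviations correlated at 0.182, 0.108 and 0.375 between F2 and WT in DMSO, so the numbers were taken to pair the samples there, and a replicate block left the count of members past the threshold at 0. Levels per kb used GENCODE v29 lengths by symbol, and promoter windows came from RefSeq (GRCh38.p14). Alternatives were other pseudocounts, filters, scalings, tools and samples in the fit.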

Additional observations from a re-analysis of the deposited data

Results flagged for a closer look

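The following responses to tazemetostat differed between lines past the threshold (limma on log2 values, adjusted p under 0.05 and a log2 difference of at least 1), as differences of the log2 change. Between E1 and WT, CCNE2 differed by 1.20, CDK2 by 1.19, CCNA2 by 1.70 and CDK1 by 1.03, with 3 libraries in each of the 4 groups. Between F2 and WT, CCNE2 differed by 1.36, CCNA2 by 1.57 and CDK1 by 1.18, with the same WT libraries. In each of these the transcript was lower with tazemetostat in WT than with DMSO in all 3 against all 3 libraries. Between the clones CCND2 differed by 1.47, where E1 DMSO replicate 3 had 4 reads of the gene and the other 2 libraries of that group had 13 each, and without that library the difference was 1.00.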

How the results depend on the processing

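Each of 120 member results was recomputed under 28 alternatives. Of the 3360 values, 3351 kept their side of the threshold, with 7 no longer past it and 2 newly past it. Many of these could hardly change, so the tally overstates how far the results were tried. Of the 28 alternatives 18 leave out 1 library, which cannot move the log2 change of a comparison without that library's group. The other filters, the replicate block and the fit of only the compared groups leave every log2 change as it was and alter only its p-value. No result past the threshold in either fit changed direction. Direction was not compared for results short of the threshold in both fits. With every library scaled to the same total, CCND1 in WT gave 0.90, CDK1 in WT -1.0 and the CDK2 response difference of F2 from WT 1.05, which put 4 rather than 3 members past the threshold there. That scaling moved the median log2 change of all tested genes in WT from 0.03 to -0.13. With only the compared groups in the fit, 1 member rather than 2 separated E1 from WT in DMSO, since CCND2 had an adjusted p of 0.064. Leaving out single libraries gave 3 to 4 members for the response difference of E1 from WT and 0 to 1 for that between the clones. With a replicate block the counts in the 12 comparisons were 6, 2, 2, 2, 0, 4, 4, 4, 3, 2, 1 and 1, as without it. The pairing check gave correlations from -0.244 to 0.315 in the 8 comparisons other than F2 against WT in DMSO, with at most 3 of 6 samples closest to their own number. Shares of a family, the summed CDK4 and CDK6 level in E1 and the order of members depend on the length used, and CCND2 under tazemetostat made up 36.7%, 27.1% and 38.8% of the D-type level per coding length in WT, E1 and F2. CDK6 and CCND2 with DMSO rest on few reads, which limits the precision of their ratios. The cause of the changes with a setting was not tested.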
